A study of Mus musculus with 8 samples.

Results

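The genes described here are 44 genes of the extracellular matrix, taken as a list of names, all of which were found among the 17921 genes of the count table. They comprise 5 fibrillar collagens, 3 chains of collagen VI, 2 collagens that separate fibroblast types (Col13a1 and Col14a1), 8 genes of the basement membrane, 9 of elastic fibres, 3 small leucine-rich proteoglycans, 6 adhesive or matricellular proteins and 8 genes of matrix processing and turnover. They were read in 20778 single cells of 8 left lung grafts, each graft from 1 mouse and run as 1 library. In 5 grafts (B6→B6) donor and recipient were both C57BL/6, and in 3 (HLA→B6) the donor was of a C57BL/6 strain that carries a human HLA-A2.1 transgene, and the recipient was C57BL/6. The labels describe the first as controls without rejection and the second as developing bronchiolitis obliterans syndrome (BOS), the airway form of chronic rejection. All mice were male, none received immunosuppression, and grafts were taken 1 month after transplantation. Both groups thus had the same operation.

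The extracellular matrix is the protein scaffold that cells secrete around themselves. In the lung, fibroblasts, smooth muscle cells and pericytes make most of the fibrillar collagen and elastin, which carry tension and recoil, while endothelial and epithelial cells lay down the basement membrane on which they sit. Enzymes such as lysyl oxidases cross-link the fibres, metalloproteinases cut them, and TIMP proteins hold the metalloproteinases back. In chronic rejection of lung grafts collagen accumulates around the airways, and many of the genes listed are read as markers of that process.

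The libraries held 947 to 6544 cells and 1669076 to 12445769 unique molecular identifiers (UMIs), with a median of 1356 to 1948 UMIs per cell. A UMI marks 1 transcript molecule, so a count needs no correction for gene length, and levels are given in CPM, a gene's UMIs scaled by all UMIs of the same cells so that 1% of the UMIs is 10000 CPM. Libraries shared cell barcodes, 160 of them between B6→B6 replicate 2 and HLA→B6 replicate 2, and 793 cells (3.82%) were left out where each result was repeated without them. Structural cells had been divided by the authors into clusters 0 to 10. Clusters 1 and 2 are named as epithelial in the deposited table, but a list of endothelial markers was at 4950 to 8217 CPM in cluster 1 and at 7490 to 13017 CPM in cluster 2, against at most 72.2 CPM for a list of epithelial markers, and Epcam was at 0 in cluster 2. They are called by number here. Cluster 3, named as fibroblasts and smooth muscle, held the fibroblast list at 681 to 4902 CPM, but also the endothelial list at 1148 to 3246 CPM. Of its smooth muscle markers Cnn1 was at 0.

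Most of these genes had their highest level in cluster 3, which had 345 cells. Among 13 clusters and cell types with at least 200 cells, 37 of the 44 members had their highest pooled level there, and 35 did so without the cells of shared barcodes. For 11 members over 90% of the UMIs found in structural cells came from cluster 3, and for 9 members under 20% did. Over all members together the share was 32.6%, while cluster 3 held 6.26% of structural cells and 7.93% of their UMIs. Since clusters were made from the same counts, these levels are a description and were not tested.

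Sparc, a matricellular protein that binds collagen, was the highest member in cluster 3 at 3293 CPM, followed by Igfbp7 at 2496, the proteoglycan decorin (Dcn) at 2485, elastin (Eln) at 2159 and biglycan (Bgn) at 1684 CPM. The fibrillar collagens of types I and III came next, with Col3a1 at 1515, Col1a2 at 1181 and Col1a1 at 1078 CPM. The spread over mice was wide relative to the steps between these genes. In the 6 mice with at least 10 cells of cluster 3, Sparc was 3521 ± 1783 CPM (SD, n = 6), Igfbp7 2300 ± 1573, Dcn 2003 ± 1497 and Eln 2162 ± 3833, so neighbours in this order did not differ beyond it. Dcn was the most restricted member, with 99.0% of its structural UMIs in cluster 3 and 2.30 CPM in T cells. T cells were taken as a guide to the level of free RNA, which was not measured. Col1a1 was at 0.765 CPM and Eln at 3.61 CPM in T cells. A UMI of Sparc was found in 56.2% of cluster 3 cells at 500 UMIs per cell, against 0.693% of T cells at the same depth.

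**Figure D1:**
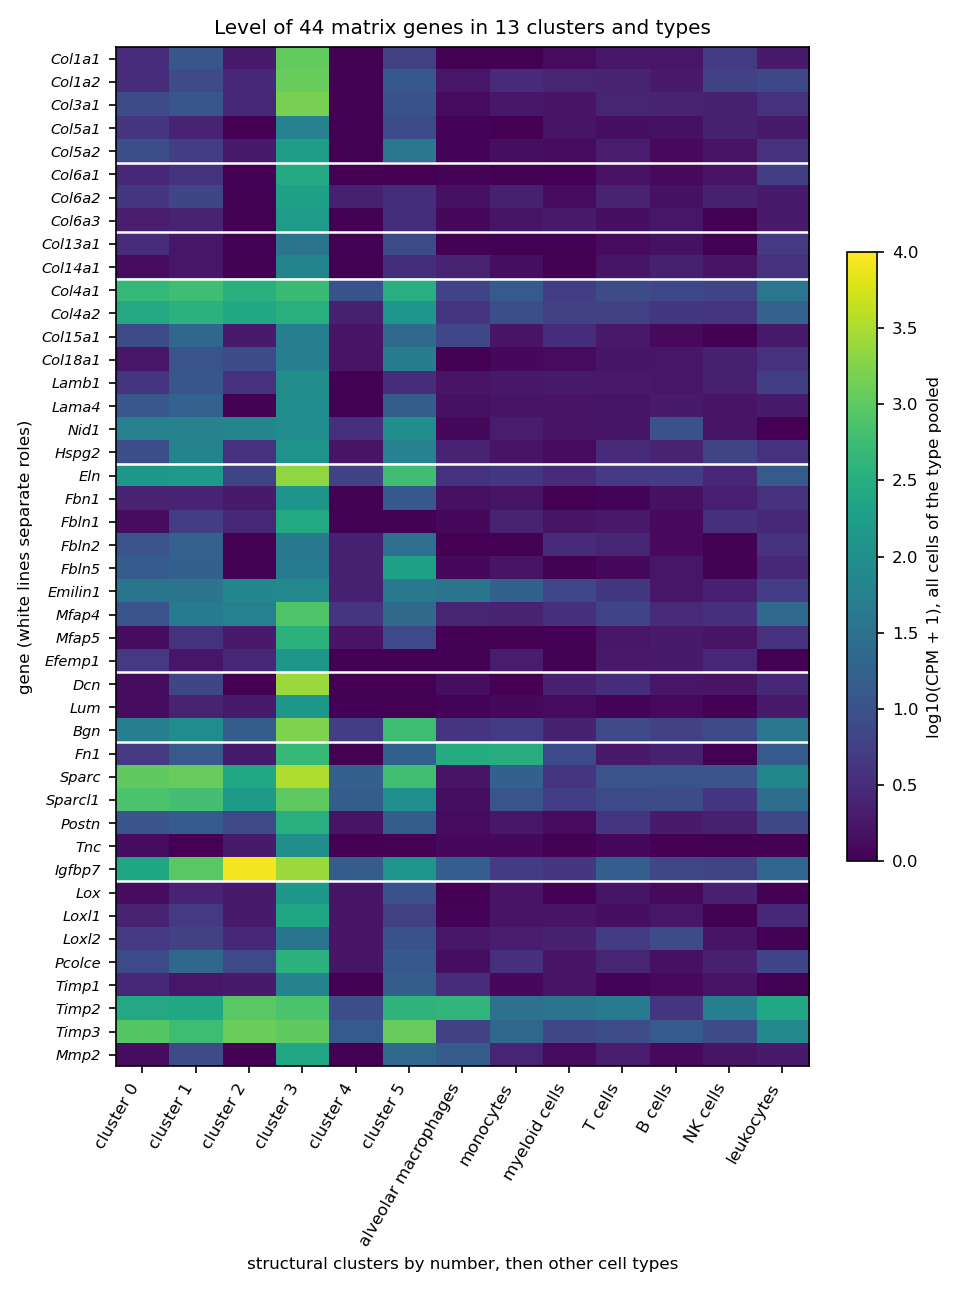
Pooled level of the 44 members in 6 structural clusters and 7 other cell types, each with at least 200 cells. Rows are genes in the order of their roles, with white lines between roles, columns are clusters or types, and the colour is log10(CPM + 1). The column of cluster 3 is the brightest for 37 of the 44 members, the row of Igfbp7 is brightest in cluster 2, and Fn1 and Timp2 are also bright in alveolar macrophages.

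The 7 members with their highest level elsewhere were Igfbp7, Timp2, Timp3, Col4a1, Col4a2, Nid1 and Fbln5. Igfbp7, a secreted protein of vessel walls that binds insulin-like growth factors, was at 8498 CPM in cluster 2 and had a UMI in 97.2% of its 529 cells. Over the 8 mice it was 8457 ± 1924 CPM in cluster 2, from 5404 to 10693. In cluster 3 it was between 306.5 and 4063 CPM in the 6 mice with at least 10 cells, but 6272 CPM in the 6 cells of B6→B6 replicate 2, within the range of cluster 2. Timp3 and Timp2, inhibitors of metalloproteinases, were at 1242 and 960.5 CPM in cluster 2, against 1049 and 735.1 CPM in cluster 3. Col4a1 and Col4a2, the main collagen chains of basement membranes, were at 587.7 and 362.7 CPM in cluster 1, at 525.3 and 325.6 CPM in cluster 3, and within the spread between mice of one another in those clusters. Nidogen 1 (Nid1), which links laminin to collagen IV, was about level between cluster 5 and cluster 3, at 90.2 and 86.8 CPM. Fibulin 5 (Fbln5), which organises elastin, was at 191.9 CPM in cluster 5, named as Vcam1+ endothelial, and at 44.9 CPM in cluster 3. Elastin itself was at 582.6 CPM in cluster 5 and had a UMI in 22.9% of those cells at 500 UMIs per cell, against 15.2% in cluster 3.

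Fibronectin (Fn1), the adhesive protein of provisional matrix, was the member made least by structural cells, which held 8.22% of its UMIs. It was at 484.8 CPM in cluster 3, 310.3 CPM in monocytes and 299.8 CPM in alveolar macrophages, and at 0.874 CPM in T cells. Timp2, with 37.0% of its UMIs in structural cells, was at 421.5 CPM in alveolar macrophages and 43.3 CPM in T cells. Elastin microfibril interfacer 1 (Emilin1), with 39.5% of its UMIs in structural cells, was at 75.2 CPM in cluster 3 and 34.1 CPM in alveolar macrophages.

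Sequence upstream of a gene's start was looked at for the members. Printed below are 2 windows, of Col3a1, a collagen of cluster 3, and of Igfbp7, which was high in endothelial-marked cells. Of the 44 members 29 had an entry in the RefSeq promoter table (GRCm38.p6), and the windows of 17 overlapped an annotated exon. The 250 bases before the start of Col3a1 (chr1:45311288-45311537, plus strand) and of Igfbp7 (chr5:77408046-77408295, minus strand) overlapped none and are given 5′ to 3′, with capitals for a TATA box (TATAAA) in Col3a1 and for GC boxes (GGGCGG, or CCGCCC on the other strand) in Igfbp7.
Col3a1: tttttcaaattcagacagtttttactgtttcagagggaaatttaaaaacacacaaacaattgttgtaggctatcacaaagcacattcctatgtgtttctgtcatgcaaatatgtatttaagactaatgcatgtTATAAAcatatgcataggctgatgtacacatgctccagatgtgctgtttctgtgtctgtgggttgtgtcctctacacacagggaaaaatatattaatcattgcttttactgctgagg
Igfbp7: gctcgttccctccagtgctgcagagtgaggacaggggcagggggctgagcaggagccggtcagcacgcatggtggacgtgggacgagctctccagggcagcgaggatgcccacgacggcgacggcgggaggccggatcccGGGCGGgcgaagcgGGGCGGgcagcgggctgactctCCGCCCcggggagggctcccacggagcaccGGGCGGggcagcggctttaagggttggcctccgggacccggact
The TATA box of Col3a1 begins 117 bases before the start, and the GC boxes of Igfbp7 begin 44, 74, 96 and 110 bases before it. Bgn, highest in cluster 3 and also with a window free of exons, has GC boxes that begin 6, 10 and 34 bases before its start. The printed windows are thus no contrast between the patterns of level. Searched on both strands, a GC box was found in 19 of the 29 member windows (65.5%) and in 32.9% of all 27025 windows. A TATA box was in 3 member windows (10.3%) against 13% of all, and a CCAAT box (CCAAT or ATTGG) in 9 (31.0%) against 34.5%. Such a match is a run of letters and not a bound site.

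All structural cells of a mouse were summed first and HLA→B6 was compared with B6→B6 by edgeR's quasi-likelihood test. Of the 44 members 37 had enough counts and 0 passed an adjusted p of 0.05 over all 8109 genes tested, of which 0.604% did. At an unadjusted p under 0.05 there were 9, namely Igfbp7, Sparcl1, Fbln2, Fbln5, Mmp2, Eln, Col1a1, Timp2 and Col1a2, against 8.34% of all genes. DESeq2 called 1, Igfbp7, against 1.16% of all genes. The log2 fold change, HLA→B6 over B6→B6, was above 0 for 9 of the 37 members (24.3%), against 49.1% of all genes, and its median was -0.47 for the members and -0.01 for all genes. In such a sum, fewer cells that make a transcript and less transcript per cell cannot be told apart. Here and below, per-mouse values in comparisons are CPM over the genes tested, scaled between mice by TMM.

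Igfbp7 was the member nearest to the threshold. Its level was 1638, 2624, 2113, 2247 and 2113 CPM in B6→B6 replicates 1 to 5 and 395.5, 856.4 and 1054 CPM in HLA→B6 replicates 1 to 3. Every HLA→B6 mouse lay below every B6→B6 mouse, with a log2 fold change of -1.49 (SE 0.31, edgeR adjusted p = 0.0587). Cluster 2, where Igfbp7 was highest, made up 10.5% to 24.9% of structural cells in B6→B6 mice and 0.701% to 7.47% in HLA→B6 mice. Without cluster 2 in the sum, the log2 fold change was -1.23 (adjusted p = 0.302), and without cluster 3 it was -1.49 (adjusted p = 0.157). Without the red blood cells of cluster 4 it was -1.48 with an adjusted p of 0.0393, and without HLA→B6 replicate 3 it was -1.77 with an adjusted p of 0.0391, both past the threshold.

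Within clusters, Igfbp7 was 1839, 2149, 2086, 1308 and 2908 CPM in cluster 1 of B6→B6 mice and 697.0, 1192 and 786.3 CPM in HLA→B6 mice. The groups did not overlap, as for 1.45% of the genes tested there in this direction, and the log2 fold change was -1.17 (SE 0.29, adjusted p = 0.0673). It passed the threshold without B6→B6 replicate 4 (adjusted p = 0.0312) and without HLA→B6 replicate 2 (adjusted p = 0.0350). In cluster 2 the level of Igfbp7 was 11751 ± 2411 CPM (SD, n = 5) and 10750 ± 2750 CPM (n = 3), a log2 fold change of -0.14 (SE 0.20, adjusted p = 0.851), and the groups overlapped. In cluster 0 it was -0.84 (adjusted p = 0.595). A list of 5 red cell genes was at 0 to 1216 CPM in cluster 1 of B6→B6 mice and 2467 to 12417 CPM in HLA→B6 mice, and lymphatic endothelial markers (Prox1 at 0) were at 0 to 5443 and 0 to 86.6 CPM. Their part in the result there was not tested.

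Besides Igfbp7, Fbln2 and Fbln5 were the members whose groups did not overlap in the sum of structural cells, both lower in HLA→B6, as were 2.66% of all genes, while 3.24% were higher without overlap. Fbln2, a fibulin of elastic fibres and vessel walls, was 23.5, 10.6, 15.2, 10.9 and 14.5 CPM against 7.14, 6.79 and 3.98 CPM (log2 fold change -1.17, SE 0.37, adjusted p = 0.274). These are 15, 3, 24, 23 and 2 UMIs against 26, 8 and 2, so the gap between the groups rests on few molecules. Fbln5 was 42.2, 49.2, 22.2, 18.4 and 50.7 CPM against 16.7, 11.03 and 15.9 CPM (log2 fold change -1.04, SE 0.37, adjusted p = 0.370). Among the 5 highest members, Sparcl1, a relative of Sparc, was higher in mean in HLA→B6 grafts, at 224.3 ± 109 CPM and 508.1 ± 185 CPM, with overlap of the groups (log2 fold change 1.14, SE 0.34, adjusted p = 0.247). Sparc (0.34), Timp3 (0.25) and Timp2 (-0.47) were within 0.5 of 0 on the log2 scale and overlapped between groups. Together the 44 members took 0.203% to 1.04% of structural UMIs in B6→B6 mice and 0.249% to 0.643% in HLA→B6 mice. Red cell genes, which enter the total, were at 71961 to 738969 and 78886 to 577527 CPM of the same sums. They were highest in B6→B6 replicate 5 and HLA→B6 replicate 3, the mice with the lowest member shares.

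**Figure D2:**
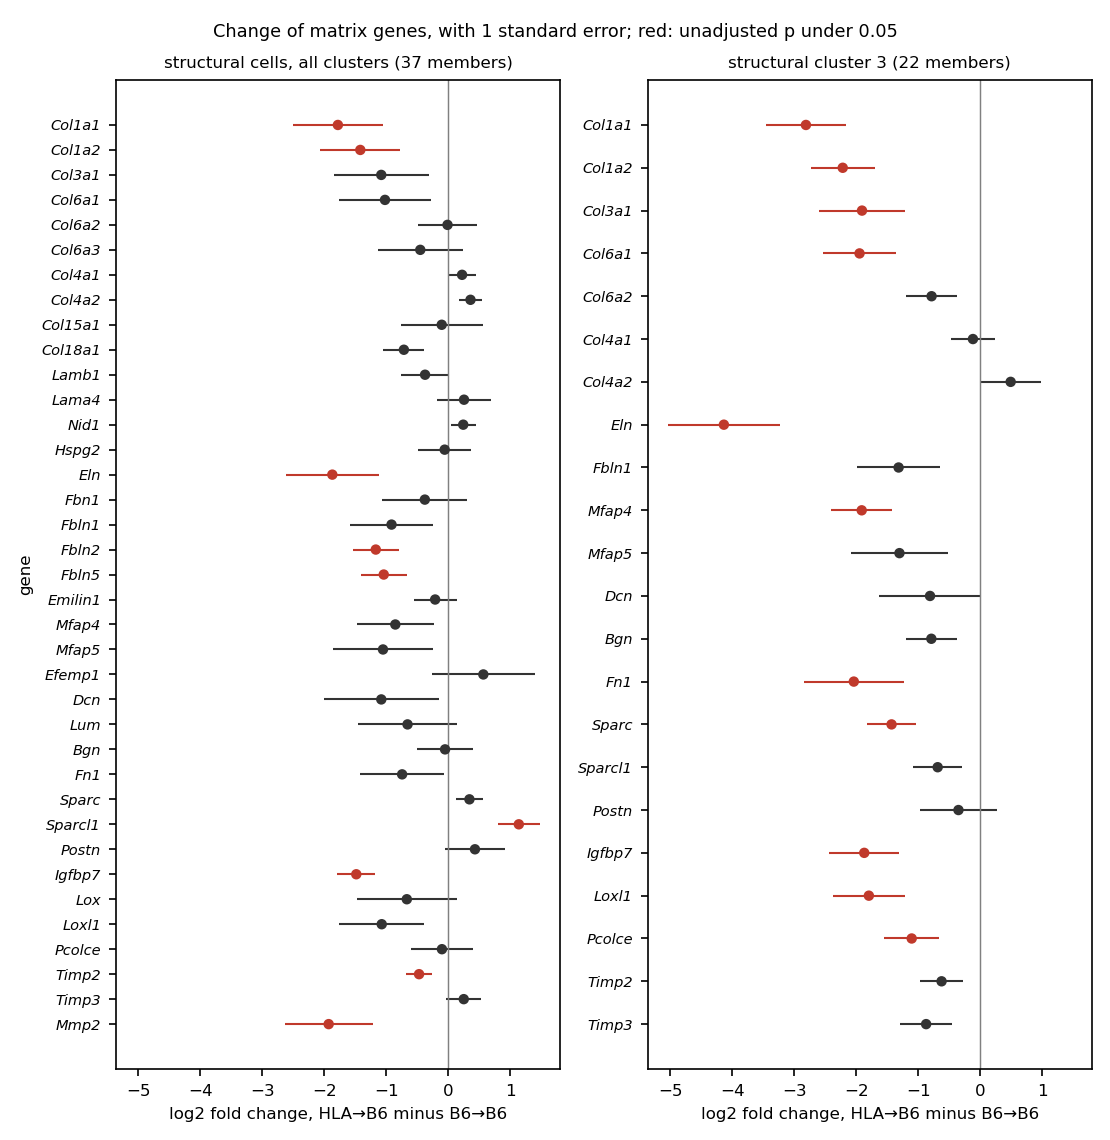
Log2 fold change of HLA→B6 over B6→B6 (horizontal axis) for the members tested in the sum of structural cells (left, 37 members) and in cluster 3 (right, 22 members), with bars of 1 standard error. Red marks an unadjusted p under 0.05, no member passed the adjusted threshold, and in cluster 3 every point except that of Col4a2 lies below 0.

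In cluster 3 no member passed the test between HLA→B6 and B6→B6 grafts. Cluster 3 could be compared in 3 B6→B6 mice (replicates 1, 3 and 4, with 15, 41 and 42 cells) and 3 HLA→B6 mice (180, 25 and 29 cells), since B6→B6 replicates 2 and 5 had 6 and 7 cells. Of 22 members tested 0 were called, against 0.317% of the 1260 genes tested. For 11 members the unadjusted p was under 0.05, against 13% of all genes. DESeq2 called 6 (Col1a1, Col1a2, Eln, Mfap4, Sparc and Igfbp7), against 3.74% of the 721 genes to which it gave an adjusted p. Only Col4a2 had a log2 fold change above 0, whereas 52% of all genes did, and the median was -1.31 for the members and 0.02 for all genes. The 2 groups did not overlap for 13 members, all lower in HLA→B6, as were 8.25% of all genes, while 12.5% were higher without overlap. The low-count filter asks for enough counts in only as many mice as 1 group had. A member could thus be tested through its B6→B6 values alone, and its lower HLA→B6 level is then partly set by the filter. This concerns at least Col6a1, Loxl1 and Fn1, which do not overlap and had 0 UMIs in 1 HLA→B6 mouse each. Their HLA→B6 values alone could not have passed the filter. The full number of such members was not counted, and the shares over all genes passed the same filter. In plain CPM of all 8 mice, with the 6 and 7 cells of B6→B6 replicates 2 and 5 included, 4 members did not overlap (Igfbp7, Col1a2, Timp3 and Timp2), against 2.3% of all genes. The count of calls also changed when single libraries were left out. Without B6→B6 replicate 1, which had 15 cells, there were 8 (Col1a1, Col1a2, Col3a1, Eln, Mfap4, Sparc, Tnc and Mmp2), against 1.12% of the 2404 genes then tested. Without HLA→B6 replicate 1 there was 1 call, Igfbp7, and without HLA→B6 replicate 3 there was 1, Tnc. With all 8 mice and at least 5 cells per mouse there were 0.

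Type I collagen is the main tension-bearing fibre of the lung and is built from the products of Col1a1 and Col1a2. Col1a1 was 557.1, 3314 and 4832 CPM in B6→B6 replicates 1, 3 and 4 and 572.9, 320.7 and 292.4 CPM in HLA→B6 replicates 1 to 3 (log2 fold change -2.81, SE 0.65, edgeR adjusted p = 0.0992). B6→B6 replicate 1 lay within the HLA→B6 range, and the other B6→B6 mice lay above it. Col1a2 was 1433, 4390 and 3231 CPM against 910.1, 694.8 and 292.4 CPM, without overlap (log2 fold change -2.22, SE 0.52, adjusted p = 0.102). Col3a1, which forms mixed fibres with type I collagen, was 716.3, 6515 and 2654 CPM against 1325, 320.7 and 919.0 CPM (log2 fold change -1.91, SE 0.69, adjusted p = 0.246). Here too the overlap came from B6→B6 replicate 1.

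Eln, the elastic core of alveolar walls and vessels, had the largest log2 fold change of the members tested. It was 1273, 15687 and 2423 CPM in the B6→B6 mice and 564.8, 213.8 and 208.9 CPM in the HLA→B6 mice (log2 fold change -4.13, SE 0.91, adjusted p = 0.0992). All 3 HLA→B6 values were below the lowest B6→B6 value, and the highest B6→B6 mouse stood apart from the other two. Mfap4, a microfibril protein that binds elastin, was 1751, 3831 and 1067 CPM against 642.0, 534.5 and 584.8 CPM (log2 fold change -1.91, SE 0.49, adjusted p = 0.138). Loxl1, an enzyme that cross-links elastin, was 238.8, 894.8 and 375.0 CPM against 211.3, 0 and 125.3 CPM (log2 fold change -1.80, SE 0.58, adjusted p = 0.200). Neither of these overlapped between the groups, while Fbln1 and Mfap5 did. The Loxl1 values are 3, 64 and 26 UMIs against 52, 0 and 3, so its narrow gap rests on few molecules.

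Sparc was the steadiest of the high members. It was 6606, 8333 and 8755 CPM in the B6→B6 mice and 3340, 2726 and 2715 CPM in the HLA→B6 mice (log2 fold change -1.43, SE 0.40, adjusted p = 0.156), without overlap among these 6 mice. In plain CPM, B6→B6 replicate 5, with 5 Sparc UMIs in 7 cells, was at 1236 CPM, below the 1737 to 2216 CPM of the HLA→B6 mice. Igfbp7 was 4457, 6432 and 5943 CPM against 2787, 481.0 and 1128 CPM (log2 fold change -1.87, SE 0.56, adjusted p = 0.181), and Fn1 636.7, 2167 and 533.7 CPM against 528.2, 53.4 and 0 CPM (log2 fold change -2.04, SE 0.81, adjusted p = 0.312). The Fn1 value of B6→B6 replicate 1 came from 8 UMIs, so the narrow gap of Fn1 rests on few molecules. Sparcl1 and Timp2 were also without overlap, at log2 fold changes of -0.69 and -0.62. Postn, a matricellular protein of stressed tissue, overlapped, at 1831, 643.2 and 331.8 CPM against 402.3, 1069 and 584.8 CPM.

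Among the remaining collagens and their processing, Col6a1, a chain of the beaded filaments around cells, was 477.5, 1007 and 490.4 CPM against 268.2, 0 and 83.5 CPM (log2 fold change -1.95, SE 0.59, adjusted p = 0.185), and Col6a2 was at -0.78, also without overlap. In B6→B6 replicate 1 these 2 genes had only 6 and 4 UMIs. Pcolce, which helps to cut the ends off procollagen, was 795.9, 950.8 and 519.3 CPM against 471.3, 160.3 and 292.4 CPM (log2 fold change -1.10, SE 0.44, adjusted p = 0.315). Timp3 was 2228, 1720 and 2250 CPM against 1430, 1336 and 543.1 CPM (log2 fold change -0.87, SE 0.42, adjusted p = 0.400). Dcn ranged widely in both groups, from 716.3 to 6222 CPM and from 213.8 to 4052 CPM, and Bgn also overlapped (log2 fold change -0.79). The collagen IV chains overlapped between the groups, Col4a1 at a log2 fold change of -0.12 (SE 0.36) and Col4a2 at 0.49 (SE 0.48). Col4a1 and Col4a2 lie on opposite strands of chromosome 8, and their annotated spans share 22 bases (11312805 to 11312826, GRCm38).

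**Figure D3:**
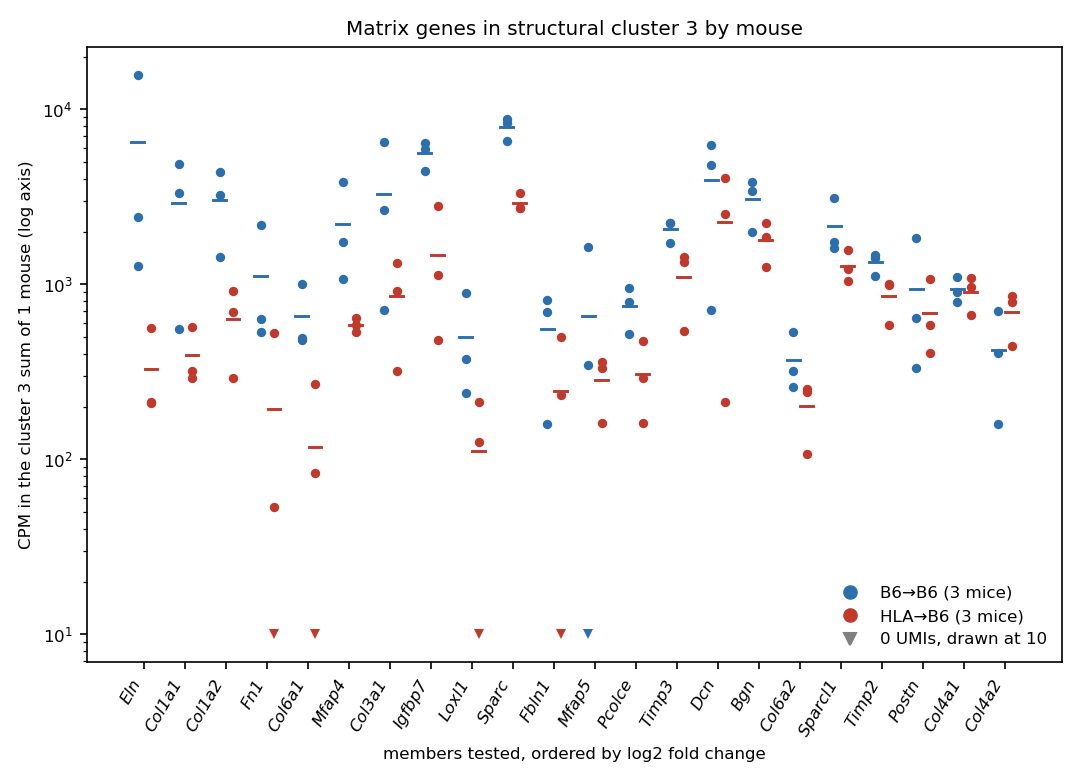
CPM (log axis) of the 22 members tested in cluster 3, with 1 point per mouse, blue for the 3 B6→B6 and red for the 3 HLA→B6 mice, short lines for group means, and triangles at 10 for 0 UMIs. For Sparc the blue points lie between 6606 and 8755 and the red ones between 2715 and 3340, whereas for Col4a1 the colours mix.

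The other 22 members were too rare in cluster 3 to be tested. Tenascin C (Tnc), an adhesive protein of remodelling matrix, had 1, 0, 40, 22 and 0 UMIs in B6→B6 replicates 1 to 5 and 2, 0 and 0 UMIs in HLA→B6 replicates 1 to 3, so that B6→B6 replicates 3 and 4 held nearly all of them. Mmp2, a protease of basement membrane and denatured collagen, had 1, 3, 54, 76 and 0 UMIs against 32, 1 and 1. Lysyl oxidase (Lox) had 0, 2, 35, 13 and 0 UMIs against 44, 0 and 0, which shows no gap between the groups. Tnc was called with no filter on low counts (log2 fold change -5.38, adjusted p = 1.48e-07), as was Mmp2 (-2.83, adjusted p = 0.000466).

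In several mice the members' counts came from few cells. In B6→B6 replicate 3, 695 of the 1122 Eln UMIs of cluster 3 (61.9%) were in 1 cell, as were 67 of its 117 Mfap5 UMIs (57.3%). In B6→B6 replicate 4, 181 of 335 Col1a1 UMIs (54.0%), 86 of 184 Col3a1 UMIs (46.7%) and 91 of 224 Col1a2 UMIs (40.6%) were each in 1 cell. In HLA→B6 replicate 3 the same held for 69 of 97 Dcn UMIs (71.1%). Over all 44 members the top cell held 23.8%, 27.1% and 23.7% of the UMIs in B6→B6 replicates 1, 3 and 4. It held 7.73%, 14.8% and 27.6% in the HLA→B6 mice, so the groups overlapped in this share. When the cell with the most member UMIs was left out of each mouse, the log2 fold change was -3.24 for Eln (adjusted p = 0.0925), -2.05 for Col1a2 (adjusted p = 0.117) and -1.15 for Sparc, and 0 members were called.

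**Figure D4:**
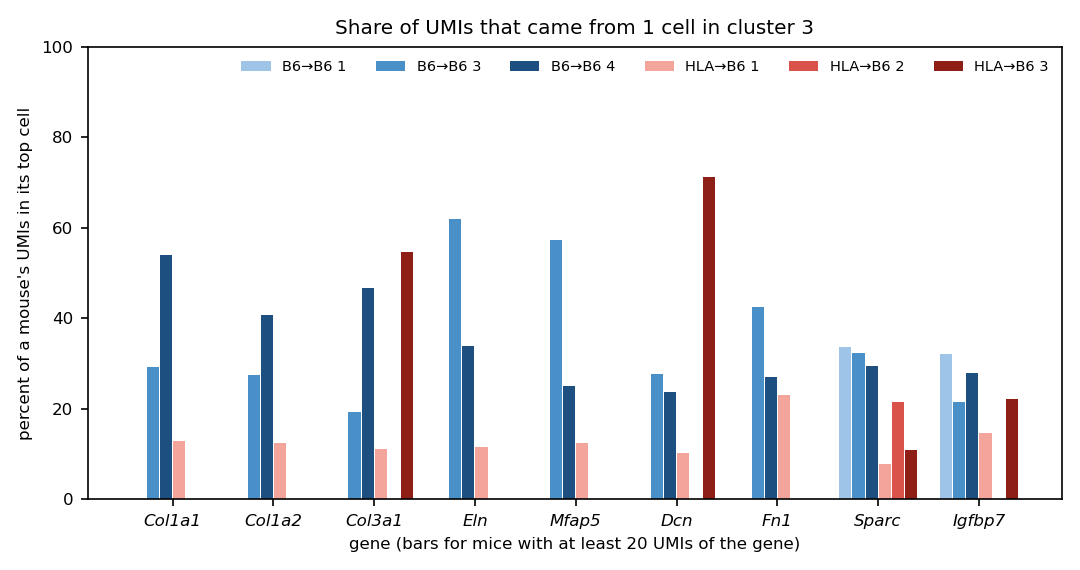
Percent of a mouse's cluster 3 UMIs of a gene that came from its top cell, for 9 members, with 1 bar per mouse that had at least 20 UMIs of the gene. Blue bars are B6→B6 and red bars HLA→B6 mice, and the bar of Eln in B6→B6 replicate 3 reaches 61.9% while those of Sparc are all below 34%.

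A measure that a rich cell cannot carry is the share of cells with at least 1 UMI, computed at 500 UMIs per cell in 13, 37 and 38 cells of the B6→B6 and 159, 23 and 23 cells of the HLA→B6 mice. This share did not overlap between groups, and was lower in HLA→B6, for 9 of the 22 members (Col1a1, Col1a2, Col6a2, Eln, Fbln1, Sparc, Igfbp7, Loxl1 and Timp2), against 6.51% of the genes tested. It was without overlap and higher for 0 members, against 10.1% of genes, and the mean was lower in HLA→B6 for 20 of the 22. These 22 members had passed the same low-count filter, so its limit given above holds here too. For Col1a1 it was 26.1% ± 7.14 in B6→B6 and 8.02% ± 1.80 in HLA→B6 mice (SD, n = 3 each), and for Col1a2 35.8% ± 10.8 and 12.2% ± 5.36. Igfbp7 was found in 48.7% ± 6.88 and 22.7% ± 12.3 of cells, and Eln in 21.8% ± 9.35 and 8.31% ± 3.91. For Sparc the shares were closer, 62.6% ± 2.91 and 52.2% ± 8.55. Of T cells, taken as a guide to free RNA, 0.213% had a UMI of Eln at the same depth.

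Marker genes of other cells moved with the groups in cluster 3. A list of 8 fibroblast markers, none of them a member, was at 3937, 4902 and 4328 CPM in the B6→B6 mice and at 2621, 681.1 and 1464 CPM in the HLA→B6 mice, all detected. A list of 6 endothelial markers, also all detected, was at 1148 to 1978 CPM and at 2590 to 3246 CPM. Neither overlapped. Pericyte markers (715.4 to 4484 and 1397 to 3610 CPM) and smooth muscle markers (556.4 to 4101 and 253.4 to 817.3 CPM) overlapped, and red cell genes were at 0 to 392.6 and 136.2 to 7506 CPM. Each cell of cluster 3 was therefore placed by which of 5 marker lists led by at least 2 UMIs, a rule made after the data were seen. Fibroblast markers led in 88 cells, endothelial in 89, pericyte in 58, mesothelial in 10 and smooth muscle in 9, and no list led in 91, in 62 of which a list was ahead by exactly 1 UMI. Fibroblast-led cells were 33.3%, 46.3% and 28.6% of cluster 3 in B6→B6 replicates 1, 3 and 4 and 25.6%, 4% and 10.3% in the HLA→B6 mice. Endothelial-led cells were 13.3%, 17.1% and 23.8% against 32.2%, 32% and 13.8%, with overlap, since HLA→B6 replicate 3 lay among the B6→B6 mice.

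Pooled levels of matrix genes differed between these classes, which is given with no test. Mfap4 (1783 CPM) and Lox (354.0 CPM) were highest in fibroblast-led cells, Postn (1349 CPM) in pericyte-led cells, Dcn (13428 CPM) and Col3a1 (3831 CPM) in the 10 mesothelial-led cells, and Timp3 (2604 CPM) and Igfbp7 (5309 CPM) in the 9 smooth muscle-led cells. Eln was at 5032 CPM in fibroblast-led cells, and at 2194 CPM without the top cell of B6→B6 replicate 3. Col1a1 was at 2568 CPM in pericyte-led cells, but 181 of its 196 UMIs there came from the top cell of B6→B6 replicate 4, without which it was at 219.9 CPM, below the 1370 CPM of fibroblast-led cells. Within fibroblast-led cells alone, the pooled level in B6→B6 and HLA→B6 cells was 9554 and 553.7 CPM for Eln (4002 CPM in B6→B6 without that top cell), 2101 and 646.0 CPM for Col1a1, 3896 and 1460 CPM for Col3a1, 5590 and 2492 CPM for Sparc and 4447 and 2903 CPM for Dcn. Of the 50 HLA→B6 cells among these 46 came from replicate 1, so that no test over mice was made. Of the 6153 member UMIs in the B6→B6 cells 4804 came from replicate 3. All members together took 1.86%, 6.84%, 2.88% and 4.84% of the UMIs of fibroblast-led cells in B6→B6 replicates 1, 3, 4 and 5. In HLA→B6 replicates 1 to 3 they took 2.46%, 1.16% and 1.24%, from 46, 1 and 3 cells. HLA→B6 replicate 1 thus lay within the B6→B6 range. Without the endothelial-led cells, the test over all of cluster 3 gave log2 fold changes of -3.84 for Eln (adjusted p = 0.301), -1.64 for Col1a2 (adjusted p = 0.375) and -1.16 for Sparc (adjusted p = 0.375), and called 0 members.

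Col13a1, a transmembrane collagen of alveolar fibroblasts, and Col14a1, a collagen on the surface of fibrils in adventitial fibroblasts, were each found in few cells of cluster 3. Of 345 cells 18 had a UMI of Col13a1 alone, 16 of Col14a1 alone, 0 of both and 311 of neither. In the 200 cells with at least 1000 UMIs the numbers were 16, 14, 0 and 170. A count of 0 of 345 cells allows a share of up to 0.870% with a UMI of both, and with so few cells of either gene few or none with both would be found even if the genes were unrelated. Whether they are kept to separate cells was not tested. Cells with Col14a1 had Dcn at 7643 CPM, Col1a1 at 3763 CPM and Eln at 15727 CPM, and cells with Col13a1 had 39.5, 572.1 and 532.6 CPM. Without the top cell of B6→B6 replicate 3, Eln was at 6447 CPM in the cells with Col14a1. Cells with Col13a1 had Inmt, an enzyme typical of alveolar fibroblasts, at 7042 CPM and Tcf21 at 651.0 CPM, against 191.1 and 147.0 CPM. Pi16, a marker of adventitial fibroblasts, was at 0 and 191.1 CPM, the latter from 13 UMIs in 25% of the 16 cells. Dpt and Clec3b of the same fibroblast list were found in both kinds of cell. Dpt had a UMI in 27.8% of cells with Col13a1 and 43.8% of cells with Col14a1, and Clec3b in 61.1% and 50%.

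Cluster 3 was 4.64%, 4.48%, 5.51%, 3.69% and 6.80% of structural cells in B6→B6 mice and 9.01%, 3.59% and 7.65% in HLA→B6 mice. The groups overlapped, and the means of 5.02% ± 1.18 and 6.75% ± 2.82 differed by 1.73 percentage points (exact permutation test over 56 splits, two-sided p = 0.321, where the smallest possible is 0.0357). Member genes made up 2.25%, 5.12% and 3.24% of cluster 3 UMIs in B6→B6 replicates 1, 3 and 4, and 1.65%, 0.967% and 1.30% in the HLA→B6 mice.

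Clusters 0, 1 and 2 were compared in the same way. In cluster 0, 9 were tested and 0 called, against 0.686% of 3645 genes, and 7 of the 9 had log2 fold changes above 0 (median 0.38), as had 49.5% of all genes. At an unadjusted p under 0.05 there were 4, against 7.68% of all genes, with Timp3 (0.86, SE 0.30, adjusted p = 0.336) and Sparcl1 (0.88, SE 0.34, adjusted p = 0.427) above 0, and Eln (-0.82) and Igfbp7 (-0.84) below. In cluster 1, 10 were tested and 0 called, against 1.02% of 2348 genes, and 6 were above 0, as were 54.2% of all genes, with 3 at an unadjusted p under 0.05, among them Igfbp7, against 7.79% of all genes. In cluster 2, 6 were tested and 0 called, against 0.243% of 1643 genes, and the 1 with an unadjusted p under 0.05 was Timp3 (0.80, SE 0.35, adjusted p = 0.358), near the 12.8% of all genes. DESeq2 called Igfbp7 in cluster 1 and 0 members in clusters 0 and 2.

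Whether a member's change differed between cluster 3 and cluster 0 was tested as an interaction. Of 30 members 0 passed, against 0.106% of genes. Sparc, at -1.43 in cluster 3 and 0.54 in cluster 0, had the smallest p (difference -1.97, SE 0.43, adjusted p = 0.0818), followed by Timp3 (difference -1.57, SE 0.39, adjusted p = 0.157). This count changed with single libraries too, since 3 members passed without HLA→B6 replicate 1 and 2 without B6→B6 replicate 1. The share over all genes in these runs is not given, so their counts cannot be set against it.

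Among immune cells 1 member passed the test, Timp2 in alveolar macrophages, where 3 members were tested. Its level was 187.2, 310.7, 368.2, 181.7 and 96.5 CPM in B6→B6 replicates 1 to 5 and 598.8, 705.7 and 740.6 CPM in HLA→B6 replicates 1 to 3. All 3 HLA→B6 mice lay well above the highest B6→B6 mouse. It rose from 228.8 ± 109 CPM (SD, n = 5) to 681.7 ± 73.9 CPM (n = 3), a log2 fold change of 1.57 (SE 0.33, edgeR adjusted p = 0.0150). In this comparison 12.3% of 5798 genes were called, 6.36% higher and 5.92% lower, and 9.11% had groups without overlap and higher in HLA→B6, so a called gene is not rare here. The call held under every alternative run, with log2 fold changes of 1.27 to 1.87 and adjusted p up to 0.0453. The sums rest on 105 to 685 cells and on 40 to 2097 Timp2 UMIs per mouse.

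Fn1 in the same cells was 580.9, 267.8, 1302, 381.7 and 178.5 CPM against 324.5, 114.4 and 465.6 CPM, with overlap (log2 fold change -0.88, SE 0.61, adjusted p = 0.372). Emilin1 was at -0.28 (adjusted p = 0.535). The identity of these cells moved with the groups as well. A list of 6 alveolar macrophage markers, with none at 0, summed to 9636 to 12234 CPM in B6→B6 mice and to 3931, 345.2 and 4602 CPM in HLA→B6 mice. Markers of monocytes were at 145.8 to 797.4 and 528.8 to 921.3 CPM, and epithelial markers at 208.8 to 461.5 and 2.18 to 50.4 CPM. The part of these shifts in the Timp2 result was not tested.

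**Figure D5:**
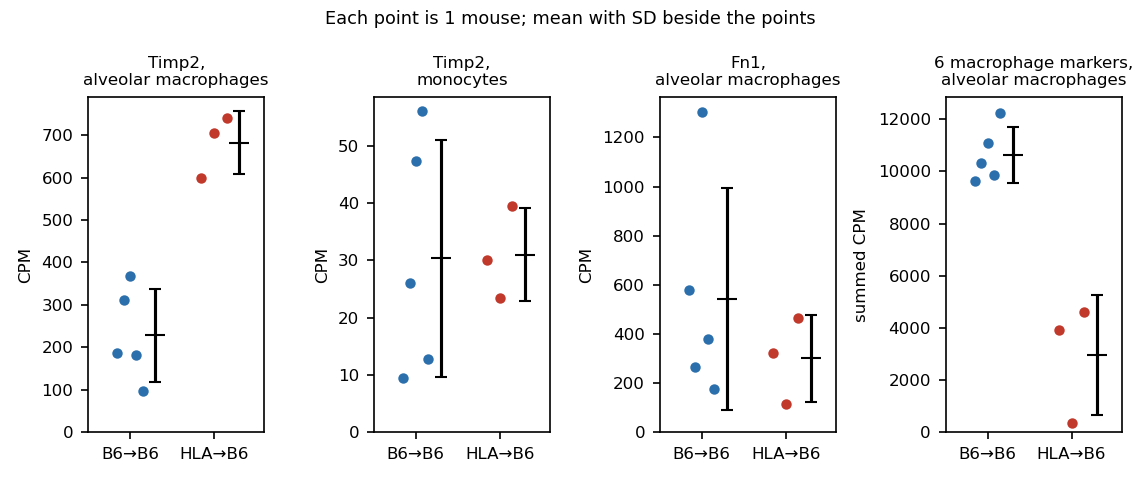
Level per mouse of Timp2 in alveolar macrophages and in monocytes, of Fn1 in alveolar macrophages, and the summed level of 6 alveolar macrophage markers, in CPM, with the mean and SD beside the points. Timp2 in alveolar macrophages lies between 96.5 and 368.2 in the 5 B6→B6 mice and between 598.8 and 740.6 in the 3 HLA→B6 mice, and the markers lie the other way.

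Other genes that act on matrix were called in alveolar macrophages, from lists that hold no member. Of 11 proteases and inhibitors tested 4 rose and 1 fell. Among all genes tested in these cells, 6.36% were called higher and 5.92% lower. Mmp14, a membrane protease that activates pro-MMP2 together with TIMP2, was 6.45, 32.1, 1.96, 0.449 and 0 CPM in B6→B6 mice and 64.3, 118.1 and 75.0 CPM in HLA→B6 mice (log2 fold change 3.89, SE 0.78, adjusted p = 0.0132). Mmp12, the elastase of macrophages, rose by 2.45 (adjusted p = 0.0335), and the lysosomal cathepsins Ctsb and Ctsl by 1.84 (adjusted p = 0.00699) and 1.10 (adjusted p = 0.00998), while Ctsk, a collagen-cutting cathepsin, fell by 1.05 (adjusted p = 0.0219). Of 7 receptors tested Sdc4 (0 to 17.1 CPM in B6→B6 and 34.4 to 46.2 CPM in HLA→B6, adjusted p = 0.00731) and Itgb5 (log2 fold change 1.47, adjusted p = 0.00392) rose, and the hyaluronan receptor Cd44 fell by 1.03 (adjusted p = 0.0459). The low-count filter can be passed here through the HLA→B6 values alone. Mmp14 and Sdc4 were low in most B6→B6 mice, so their rise may be partly set by the filter. In the other comparisons 0 genes of these lists were called. That includes cluster 3, where 3 genes of collagen folding, 8 other glycoproteins, 4 proteases and inhibitors and 6 receptors were tested.

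In monocytes Timp2 was 9.49, 26.0, 47.3, 56.1 and 12.8 CPM against 30.0, 23.4 and 39.5 CPM, with overlap (log2 fold change -0.24, SE 0.41, adjusted p = 0.999). Fn1 was at -0.04 (SE 0.37), and 0 of these 2 members were called, against 0.023% of genes. The change of Timp2 in alveolar macrophages exceeded that in monocytes by 1.66 (SE 0.41, adjusted p = 0.0482 for the interaction, passed by 2.4% of genes and by 1 of 4 members). That call was lost without any 1 of 7 of the 8 mice, at differences of 1.21 to 1.81 and adjusted p of 0.0561 to 0.160, and was kept without B6→B6 replicate 2. In myeloid cells, T cells and NK cells Timp2 was the only member with enough counts, and it was not called, against 0% of genes in myeloid and NK cells and 0.0698% in T cells, and in B cells no member could be tested.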

How the data were processed

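The authors counted UMIs with Cell Ranger on mm10 (GRCm38) from a 10x 3′ kit, clustered and named cells with Seurat and clustifyr, and deposited whole-number counts per gene and cell. Tool versions are not given in the sources used here. Their methods name SoupX for the removal of free RNA, and whether these counts precede or follow it could not be told. Replicates are numbered as in the sample titles, and 0 columns of values were left unused. Each mouse is 1 library, and its depth is given in the results.

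The members and all gene lists were chosen with earlier results of these data known. Counts were summed per mouse over a cluster or type with at least 10 cells. Genes were kept by filterByExpr (minimum count 10), libraries scaled by TMM, and groups compared with the quasi-likelihood F test of edgeR. The Benjamini-Hochberg adjusted p covers all genes tested, with a threshold of 0.05, and the standard error is the log2 fold change over the square root of F. A barcode found in several mice was left out, in an alternative, unless its depth in one was at least 5 times that in the others. The share of cells with a UMI is the expected share after a random draw of 500 UMIs per cell, shallower cells left out. The limit for a count of 0 uses 3 counts and covers counting error only. Scrublet (expected rate 0.06) marked 256 cells (1.23%), 1 of them in cluster 3, and these were kept.

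All 44 members are named or counted. Statistics are given for members past the threshold, for up to 10 per comparison whose groups do not overlap, by size of log2 fold change, for the 5 highest, and for up to 10 other matrix genes past the threshold. Further values were chosen after they were seen. Alternatives were DESeq2, its size factors within edgeR, no low-count filter, a minimum of 20 cells, cells of 500 UMIs or more, doublets or shared barcodes left out, a block for linked libraries or for replicate numbers, equal cell numbers, and each mouse left out. Sums without cluster 2, 3 or 4, and cluster 3 without endothelial-led cells, with all mice, or without the top cell of each mouse, and the plain CPM of all mice in cluster 3, were added after the data were seen. The fits were tested on simulated data. R 4.3.3 ran DESeq2 1.42.0, limma 3.58.1 and edgeR 4.0.16, and Python 3.11.15 ran scanpy 1.11.5, pandas 2.3.3, scipy 1.17.1, matplotlib 3.10.9 and numpy 2.4.6.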

Additional observations from a re-analysis of the deposited data

Results flagged for a closer look

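In 31 sets of values of B6→B6 mice, the highest or lowest mouse was compared with the others by Dixon's test, and 3 stood apart, where chance gives about 1 in 20. The 3 HLA→B6 mice are too few for this test. Sparcl1 in cluster 0 was at 1070 CPM in B6→B6 replicate 3, against 364.0 to 509.3 CPM in the other 4 mice of the group. Timp3 in cluster 1 was at 1770 CPM in B6→B6 replicate 5, against 537.3 to 704.2 CPM, and Col4a1 in cluster 2 was at 787.9 CPM in the same mouse, against 383.1 to 456.4 CPM. B6→B6 replicate 5 had 17 cells of cluster 1 and 18 of cluster 2.

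The change of Timp2 between the groups differed between alveolar macrophages and monocytes by 1.66 on the log2 scale (edgeR interaction, adjusted p = 0.0482), and the adjusted p was between 0.0363 and 0.160 when each mouse was left out in turn.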

How the results depend on the processing

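Direction was compared only for members that passed the threshold or whose groups did not overlap, within the limit per comparison stated above. None of these reversed in an alternative run that tested them. Members whose groups overlapped were not followed in this way, and for counts of members only a change in number was looked at. The number of members called in structural cells was 0, and 1 with DESeq2, 3 with no filter on low counts (Sparcl1, Tnc and Igfbp7), 1 without cluster 4 and 0 to 1 with 1 mouse left out. In cluster 1 it was 0, and 1 with DESeq2, 1 with the replicate number as a block and 0 to 1 with 1 mouse left out, in each case Igfbp7. In cluster 3 it was 0, and 6 with DESeq2 (against 3.74% of genes) and 4 with no filter (Col1a1, Eln, Tnc and Mmp2). It was 8 with at least 20 cells per mouse, which leaves out B6→B6 replicate 1 (against 1.12% of genes), and 0 to 8 with 1 mouse left out. The change between cluster 3 and cluster 0 differed for 0 members, and for 2 with no filter and 0 to 3 with 1 mouse left out. In alveolar macrophages 1 member was called, and 2 with no filter (Mmp2 added) and 2 with the replicate block (Fn1 added, log2 fold change -1.19, adjusted p = 0.0209). With no filter 2 members were called in monocytes (Sparc and Igfbp7) and 1 in B cells (Igfbp7), at counts that the filter leaves out. The Timp2 difference between alveolar macrophages and monocytes was called for 0 to 1 members with 1 mouse left out. The share over all genes is given only for some of these settings. For the rest, a rise in member calls cannot be told from a general rise in calls. The causes were not tested.

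Whether replicate numbers pair the mice is not stated, and the names of the cells number the HLA→B6 mice differently. Correlations of deviations by number were -0.180 to 0.133 in structural and T cells and -0.247 to 0.313 in alveolar macrophages. With so few numbers shared by both groups, these values cannot decide it. The block changed no other count of members. Over all genes, calls went from 49 to 94 (DESeq2) and 130 (no filter) in structural cells, from 4 to 27 and 50 in cluster 3, from 712 to 1083 (no filter) and 253 (replicate block) in alveolar macrophages. Depth limits cluster 3, where 6 mice with 15 to 180 cells were compared and the other 22 members were too rare to test.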
